A study of Mus musculus with 4 samples.

Results

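Levels of 7 S100 genes, S100a1, S100a4, S100a6, S100a10, S100a11, S100a13 and S100a16, were examined in 4 messenger RNA libraries of MLE-12 cells, a mouse alveolar epithelial line immortalised by a viral large T antigen under a surfactant protein C promoter. The genes were taken by name from the 14683 genes with values in the authors' normalised table and by identifier from the 46078 genes of their count table, and all 7 were found in both and passed the low-count filter that left 12348 genes. The libraries came from wild-type cells left unscratched, wild-type cells 24 hours after a scratch wound, Lingo1 KO cells left unscratched and Lingo1 KO cells 24 hours after a scratch, with 1 library per condition. The series concerns the part of Lingo1, a membrane protein with leucine-rich repeats, in the repair of an epithelial wound. The sources used here do not say how the knockout was made or whether the cells are 1 clone or a pool. The set was selected on gene levels and log2 differences already seen in these same 4 libraries, so every value of its members is a description and no test was made on them.

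S100 proteins are small calcium sensors that carry a pair of EF-hands, the loops that bind calcium, and mostly work as dimers. Calcium opens a groove through which they bind partners such as annexins, which tie them to membranes, and non-muscle myosin, and some act outside the cell on the receptor for advanced glycation end products (Ager), itself an abundant product of lung epithelium. S100a10 is the exception among them in that its loops no longer bind calcium, and it forms a stable complex with annexin A2 at the plasma membrane. Members of the family are studied in membrane repair, cell migration and wound closure.

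The libraries held 26903429 to 48333801 counts, and the knockout-labelled scratched library was the deepest. Lingo1 was read at 46.4 and 42.9 CPM (counts per library scaled to a fixed total) in wild-type unscratched and scratched cells and at 41.2 and 41.4 CPM in the knockout-labelled ones, so genotypes are given as labelled. Of 7 epithelial markers, Krt19, Cdh1 and Krt8 stood at 247 CPM or more in every library and Epcam near 5 CPM, while Krt18 and Cldn7 were at or near 0 and Cldn4 was at 0. Of 10 alveolar type 2 markers 6 passed the filter, Abca3, Nkx2-1, Etv5, Sftpb, Sftpc and Napsa, while Sftpa1 and Sftpd were at 0. Lamp3 had 3 to 12 counts in each library and Slc34a2 0 to 3. All 8 alveolar type 1 markers passed the filter. They summed to 3400 to 3703 CPM over the libraries, against 361 to 507 CPM for the type 2 list. Of 10 leukocyte markers, Ptprc and the neutrophil genes S100a8 and S100a9 had no count in any library. Cd14, at 2.44 to 3.10 CPM, and Cd68, at 1.57 to 1.90 CPM, passed the filter. Lyz2, Csf1r, Itgam, Cd3e and Cd79a had between 0 and 8 counts in each library. Each condition has 1 library, so the differences carry no replicate check and the 95% intervals below cover counting error only. Fewer cells of a kind and less RNA per cell cannot be told apart in these bulk samples.

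All 7 genes lie on mouse chromosome 3 (mm10), in 2 groups. S100a1 (90511034 to 90514392, minus strand), S100a13 (90514435 to 90524581), S100a16 (90537254 to 90543151), S100a4 (90603771 to 90606045) and S100a6 (90612882 to 90624181) form a cluster of 113 kb. S100a11 (93520488 to 93526287) and S100a10 (93555080 to 93564643) sit together 2.90 Mb further on, and all but S100a1 are on the plus strand. All are protein-coding with short exon sums, from 511 bases in S100a11 to 1617 bases in S100a16. S100a1 and S100a13 are transcribed away from each other with 42 bases between their annotated starts. Another gene overlaps 1 member: 302 exon bases of S100a4, 51.7% of its exon length, are also annotated as exons of Gm42674 on the same strand, a gene with 0 counts in all 4 libraries. The sources used here do not say how reads in shared exons were counted, which leaves the level of S100a4 uncertain.

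The stretches before the starts of S100a4, S100a6 and S100a11 are printed because these genes had unlike patterns over the libraries, and the gap between S100a1 and S100a13 because that pair shares it. They come from RefSeq on GRCm38.p6, the assembly of mm10, for which 6 of the 7 genes matched, with 7 windows because S100a16 has a second start inside the gene; S100a10 has no entry. Only bases before the start and outside annotated exons are shown, 5′ to 3′ on the plus strand. Capitals mark matches, on either strand, to the AP-1 letters TGANTCA, the E-box CACGTG, the TATA letters TATAAA, the GC box GGGCGG or the TEAD letters GGAATG.
S100a4, chr3:90603520-90603769: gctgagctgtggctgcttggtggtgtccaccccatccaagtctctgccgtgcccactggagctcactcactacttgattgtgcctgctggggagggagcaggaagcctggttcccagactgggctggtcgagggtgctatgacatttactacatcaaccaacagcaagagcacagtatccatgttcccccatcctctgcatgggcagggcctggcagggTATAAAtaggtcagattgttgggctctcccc
S100a6, chr3:90612644-90612881: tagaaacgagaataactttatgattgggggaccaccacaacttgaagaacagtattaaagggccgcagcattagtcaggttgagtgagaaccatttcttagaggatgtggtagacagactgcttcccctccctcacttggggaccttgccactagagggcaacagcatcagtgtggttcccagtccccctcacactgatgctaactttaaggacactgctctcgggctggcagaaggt
S100a11, chr3:93520246-93520487: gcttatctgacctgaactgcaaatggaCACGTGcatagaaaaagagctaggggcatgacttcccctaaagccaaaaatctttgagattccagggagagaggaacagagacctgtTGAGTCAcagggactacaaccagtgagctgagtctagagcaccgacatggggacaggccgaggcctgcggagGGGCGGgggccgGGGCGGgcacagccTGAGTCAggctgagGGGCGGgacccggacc
S100a1 and S100a13, chr3:90514393-90514434: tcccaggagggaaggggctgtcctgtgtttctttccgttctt

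The windows of S100a4 and S100a11 held different letters. S100a4 had a TATA match beginning 31 bases before its start, the only one among the 6 genes, and such a match lay in 13.6% of all 32851 windows of the same length (250 bases before to 50 after a start). S100a11 had 2 AP-1 matches, beginning 136 and 38 bases before its start, an E-box and 3 GC boxes. Among the 6 genes an AP-1 match was found in 2, S100a11 and S100a16, against 7.81% of all windows, and a GC box in the same 2, against 35.7%, those of S100a16 lying in the window of its inner start. The E-box was found in S100a11 and S100a6, against 7.15% of all windows, the match of S100a6 lying outside the printed stretch. No TEAD match was found in the 6 genes, and 14.7% of all windows held 1. The motifs do not overlap in these stretches.

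S100a6, which binds the ubiquitin ligase adaptor Cacybp and several annexins, was the most abundant member and among the most abundant messages of the cells. Per length, the authors' RPKM (reads scaled to transcript length and library total) of S100a6 was 1151, 1398, 1356 and 1397 in unscratched and scratched wild-type cells and unscratched and scratched knockout-labelled cells, which ranked 10 in the first library and 6 in each of the others. S100a10 followed at 367 to 431 RPKM and S100a11, which binds annexin A1, at 228 to 274 RPKM. S100a1, best known from the calcium handling of muscle, stood at 55.9 to 66.6 RPKM. S100a13, which takes part in the unconventional release of Fgf1, stood at 46.0 to 48.0 RPKM and S100a16 at 29.0 to 36.8 RPKM. S100a4, a partner of non-muscle myosin often used as a marker of mesenchymal cells, was last at 4.82 to 16.1 RPKM. No 2 neighbours in this order overlapped in their ranges over the 4 libraries. S100a6 made up 61.0% to 62.5% of the summed RPKM of the 7 genes, S100a10 18.7% to 19.4% and S100a11 11.5% to 12.2%. The order and shares rest on the authors' lengths. Those implied by the RPKM are 783 bases for S100a6, 685 for S100a10 and 511 for S100a11. The exon sums are 1367, 1212 and 511 bases. By exon sum S100a6 and S100a10 would stand lower against S100a11, which leaves the order of S100a10 and S100a11 uncertain.

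**Figure D1:**
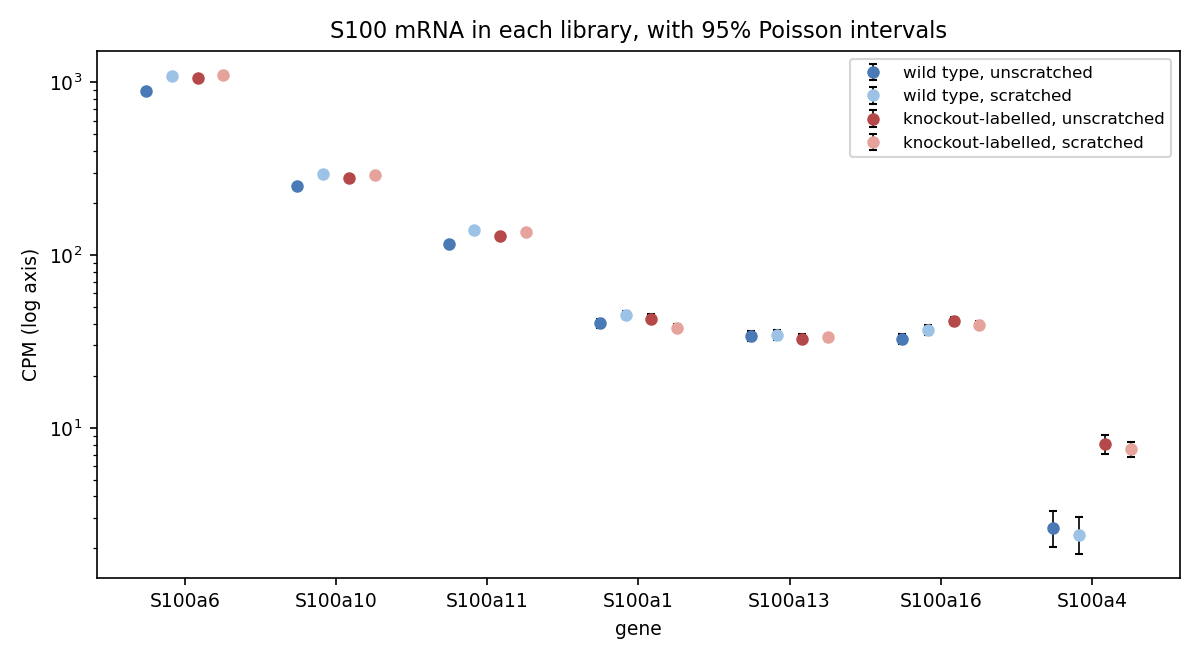
CPM of each S100 gene (log axis) in the 4 libraries, 1 point per library, with 95% Poisson intervals that for the abundant genes are smaller than the points. S100a4 differs most between genotypes, at 2.40 to 2.62 CPM in wild type and 7.49 to 8.01 CPM in the knockout-labelled cells, while S100a6, S100a10 and S100a11 are lowest in wild-type unscratched cells.

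S100a4 was about 3-fold higher in both knockout-labelled libraries than in wild type. It was counted at 2.62 CPM (95% Poisson interval 2.05 to 3.30, 71 counts) in wild-type unscratched, 2.40 CPM (1.86 to 3.05, 67 counts) in wild-type scratched, 8.01 CPM (7.02 to 9.10, 237 counts) in knockout-labelled unscratched and 7.49 CPM (6.74 to 8.31, 359 counts) in knockout-labelled scratched cells. Both knockout-labelled libraries were high and both wild-type libraries low, and the intervals of the genotypes did not overlap. The knockout to wild-type ratio was 3.06 (Clopper-Pearson interval 2.34 to 4.04) in unscratched cells. It was 3.12 (2.40 to 4.11) in scratched cells. The scratch ratio was 0.917 (0.647 to 1.30) in wild-type and 0.936 (0.792 to 1.11) in knockout-labelled cells, so no scratch difference was detectable at this depth. On the log2 scale the scratch responses of the genotypes differed by 0.03 (-0.50 to 0.56).

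S100a4 was the 1 member of 7 that was at least 2-fold different between genotypes, both without and after a scratch. To be counted so, a gene needed a log2 CPM difference (2 counts added as a prior) no smaller than 1 in either direction, and an interval without a ratio of 1. Of all 12348 genes 2.24% were counted in unscratched and 1.90% in scratched cells. The members were picked with these values in view, so nothing is read from their share. Even in the knockout-labelled cells S100a4 stayed far below S100a6, which was 84.2 and 93.2 times its RPKM there without and after a scratch.

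Some markers of other cell types moved with S100a4. Of 10 fibroblast and mesenchymal markers, 4 passed the filter. Of these, Col1a1 and Pdgfrb were at least 2-fold higher in both knockout-labelled libraries, but Pdgfrb passed the filter only through those libraries, so its difference was partly fixed by the filter. Col1a1, a collagen chain, was at 21.3 and 16.5 CPM in wild-type and 197 and 177 CPM in the knockout-labelled cells, and the receptor Pdgfrb had 0 and 1 counts against 67 and 135. The receptor Pdgfra was also higher beyond its counting interval, with 35 and 32 counts in wild type against 68 and 93, and decorin (Dcn) was lower, at ratios of 0.952 and 0.880. Of the 6 markers that did not pass, Col1a2, Col3a1, Lum, Postn and Fap had between 0 and 8 counts in each library and Thy1 between 10 and 26. The summed level of the list, nearly all of it Dcn, was 2869 and 2838 CPM in wild-type and 2913 and 2663 CPM in the knockout-labelled cells. The type 2 cell products Sftpb and Sftpc were also higher in the knockout-labelled libraries, by 4.19-fold and 3.62-fold without a scratch and 4.09-fold and 3.09-fold after it. Of the other 4 tested type 2 markers, Etv5 was at 1.45 and 1.22, Abca3 at 1.06 and 1.06, Nkx2-1 at 0.840 and 1.03 and Napsa at 0.870 and 0.615 times the wild-type level in unscratched and scratched cells. The part of these in the S100a4 difference was not tested.

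The tested genes whose pattern over the 4 libraries was nearest to that of S100a4 were Mpped2, Sema4a, Atp6v0a4, Tspan11 and Eps8. Likeness was the Euclidean distance of log2 CPM centred on each gene's mean, and it ran from 0.04 for Mpped2 to 0.14 for Eps8. Mpped2, a metallophosphoesterase, stood at 1.51 and 1.36 CPM in wild-type unscratched and scratched and at 4.56 and 4.22 CPM in the matching knockout-labelled cells. Eps8, an actin regulator downstream of growth factor receptors, stood at 4.65 and 4.52 CPM against 16.1 and 13.7 CPM.

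**Figure D2:**
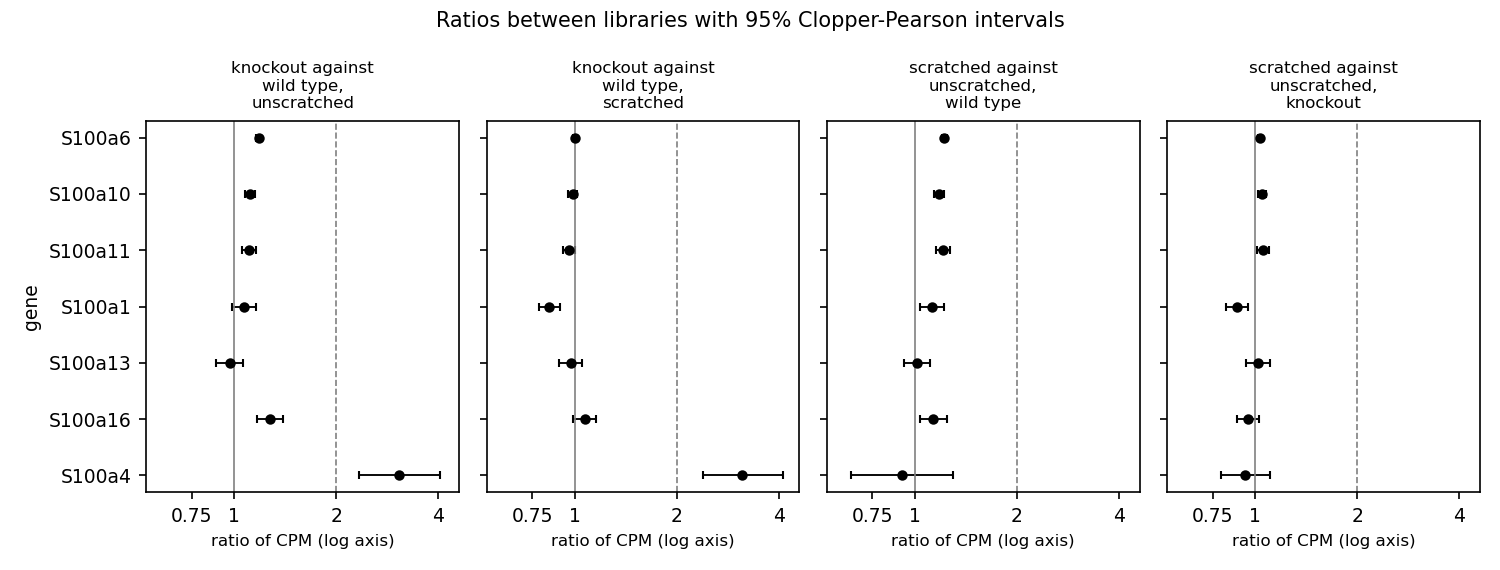
Ratios of CPM (log axis) of the 7 genes in the 4 comparisons, with 95% Clopper-Pearson intervals; the solid line marks equal levels and the dashed line a 2-fold higher level. S100a4 lies beyond the dashed line in both genotype comparisons, at 3.06 and 3.12, and every other ratio lies between 0.842 and 1.27.

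The abundant trio S100a6, S100a10 and S100a11 was lowest in the wild-type unscratched library. S100a6 was at 897 CPM there and at 1095, 1060 and 1098 CPM in scratched wild-type cells and unscratched and scratched knockout-labelled cells. S100a10 was at 250 CPM there and at 295, 278 and 291 CPM in the same order. S100a11 was at 116 CPM there and at 140, 128 and 135 CPM. In each case 1 library stood below the other 3.

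S100a16, a widely expressed member of the family, was lowest there too, at 32.5 CPM against 36.8, 41.4 and 39.5 CPM, but was highest in the knockout-labelled unscratched cells, and both knockout-labelled libraries stood above both wild-type ones. These 4 of 7 members had their lowest level in the wild-type unscratched library, as did 31.9% of all tested genes.

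After the scratch, wild-type cells had more of these messages. The scratched to unscratched ratio in wild type was 1.22 (1.20 to 1.24) for S100a6, 1.21 (1.15 to 1.27) for S100a11 and 1.18 (1.14 to 1.22) for S100a10. For S100a16 it was 1.13 (1.03 to 1.24), for S100a1 1.12 (1.03 to 1.22) and for S100a13 1.01 (0.926 to 1.11). Thus 5 of 7 members were higher beyond their counting interval, against 22.3% of all tested genes, and none was at least 2-fold different, against 0.858% of all. The median log2 difference was 0.18 for the members and 0.02 over all tested genes.

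In knockout-labelled cells the scratch ratios of S100a6, S100a10, S100a11 and S100a16 were closer to 1 than in wild type. The ratios were 1.04 (1.02 to 1.05) for S100a6, 1.05 (1.02 to 1.08) for S100a10, 1.05 (1.01 to 1.10) for S100a11, 1.02 (0.940 to 1.10) for S100a13 and 0.952 (0.886 to 1.02) for S100a16. S100a1 was lower after the scratch, at 0.885 (0.824 to 0.952). Here 3 of 7 members were higher beyond their counting interval, against 18.2% of all tested genes, and 1 was lower, against 13.9%. None was at least 2-fold different, against 0.267% of all. The median log2 difference was 0.03 for the members and 0.01 over all tested genes.

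The scratched minus unscratched log2 CPM was lower, with sign, in the knockout-labelled than in the wild-type cells for 5 of the 7 genes beyond the counting interval, as for 15.0% of all tested genes. For S100a1 the sign changed, from 0.16 to -0.18. The knockout minus wild-type difference of the responses was -0.24 (-0.27 to -0.21) for S100a6, -0.17 (-0.23 to -0.11) for S100a10, -0.20 (-0.29 to -0.11) for S100a11, -0.25 (-0.42 to -0.08) for S100a16 and -0.34 (-0.50 to -0.18) for S100a1. None reached 1 in size, which 0.891% of all tested genes did. The medians were -0.20 for the members and -0.01 over all tested genes. Each of these differences takes in the wild-type unscratched library, and without it no difference of responses can be formed.

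**Figure D3:**
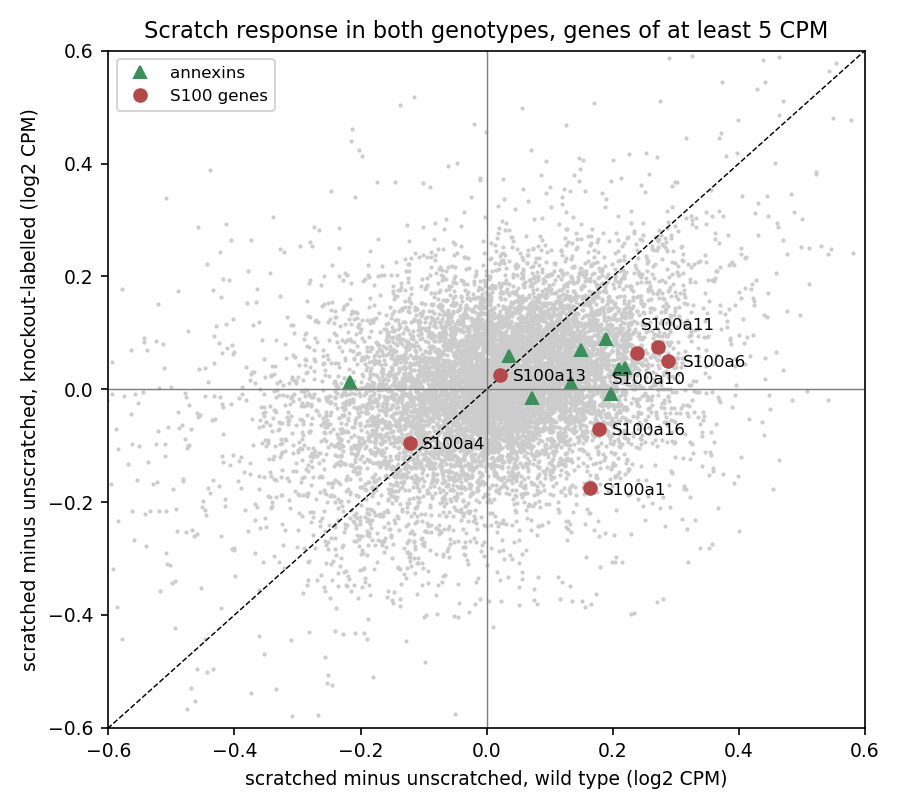
Scratched minus unscratched log2 CPM in wild-type (x axis) and knockout-labelled cells (y axis) for the genes of at least 5 CPM in a library (grey, 74 of 10486 outside the axes), with the S100 genes as circles, 9 annexins as triangles and the dashed line marking equal responses. S100a6, S100a10, S100a11, S100a16 and S100a1 lie below the line, at 0.16 to 0.29 in wild type and -0.18 to 0.08 in knockout-labelled cells, and S100a13 and S100a4 lie near it.

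Between the genotypes without a scratch, 5 of 7 members were higher in the knockout-labelled library beyond the counting interval, against 26.8% of all tested genes. Besides S100a4, the ratio was 1.27 (1.17 to 1.39) for S100a16, 1.18 (1.16 to 1.20) for S100a6, 1.11 (1.08 to 1.15) for S100a10 and 1.10 (1.05 to 1.16) for S100a11. The intervals of S100a1, at 1.07 (0.983 to 1.16), and S100a13, at 0.970 (0.885 to 1.06), held 1. The median log2 difference was 0.15 for the members and 0.01 over all tested genes. This comparison shares the wild-type unscratched library with the wild-type scratch response.

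After the scratch, the 2 libraries compared were both others. S100a6 was then at a knockout to wild-type ratio of 1.00 (0.989 to 1.02), S100a10 at 0.986 (0.960 to 1.01), S100a11 at 0.964 (0.926 to 1.00), S100a13 at 0.973 (0.898 to 1.06) and S100a16 at 1.07 (0.992 to 1.16). Only S100a4 was higher beyond its interval, against 24.0% of all tested genes, and only S100a1 lower, at 0.842 (0.783 to 0.905), against 23.6%. The median log2 difference was -0.02 for the members and 0.00 over all tested genes. The genotype difference of S100a4 was thus of similar size in both pairs of libraries, while those of S100a6, S100a10 and S100a11 were seen in the pair that held the wild-type unscratched library.

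Short messages had smaller medians than the members where the members' median was away from 0. Over the 1025 protein-coding genes with at most 2 kb of exons and at least 5 CPM in a library, the median log2 scratch difference was 0.07 in wild-type and 0.03 in the knockout-labelled cells, and the genotype difference was 0.03 in unscratched and 0.01 in scratched cells. Of these 1025 genes, 350 were higher and 108 lower beyond the counting interval after the scratch in wild type. In knockout-labelled cells 223 were higher and 99 lower. Between the genotypes 316 were higher and 215 lower without a scratch, and 250 and 249 after it. The interval narrows with counts, so abundant genes pass it at smaller differences. The part of transcript length or level in the members' values was not tested.

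S100a1 and S100a13, the divergent pair, differed in how far their levels ranged over the libraries. The counting intervals of their ratios overlapped in each comparison. Those of their differences of scratch responses did not, at -0.50 to -0.18 for S100a1 and -0.17 to 0.18 for S100a13. A difference between the 2 genes was not tested. S100a1 was at 40.3, 45.1, 42.9 and 38.0 CPM in unscratched and scratched wild-type cells and unscratched and scratched knockout-labelled cells, highest in the second and lowest in the last. S100a13 was at 33.9, 34.4, 32.8 and 33.4 CPM, a narrow range. The RPKM of S100a13 was 0.797, 0.721, 0.725 and 0.833 times that of S100a1 in the same order of libraries. All 4 ratios of S100a13 between libraries had intervals that held 1, so no difference was detectable from its 918 to 1602 counts.

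The other S100 genes were scarce. Of 11 further family members listed, 10 were found in the count table and 3 passed the filter, and S100a5, S100a8, S100a9 and S100z had no count in any library, for which 3 counts set a floor of 0.0626 to 0.111 CPM. S100a14, an epithelial member that lies in the same cluster, was at 2.21 and 2.33 CPM in wild-type unscratched and scratched and at 3.75 and 2.92 CPM in the knockout-labelled cells, with a genotype ratio of 1.69 (1.23 to 2.36) in unscratched and 1.25 (0.928 to 1.71) in scratched cells. S100b, known from glia, stood at 1.42 to 1.79 CPM. S100a3, whose annotated end lies 1069 bases before S100a4, was at least 2-fold higher in wild-type scratched cells than in wild-type unscratched ones, at a ratio of 3.61 (1.53 to 9.85). That ratio rests on 26 and 7 counts. S100a3 was also 2.62-fold higher (1.06 to 7.33) in the knockout-labelled unscratched library, on 20 and the same 7 counts. Leaving out the wild-type unscratched library, the S100a3 ratio was 1.10 (0.669 to 1.84) for the genotypes after a scratch and 1.51 (0.883 to 2.69) for the scratch in knockout-labelled cells. S100a3 passed the filter only through the knockout-labelled scratched library, at 1.02 CPM. S100a7a stood at 0.358 to 0.507 CPM. Of 7 fused-type relatives, large skin proteins that begin with an S100 domain, only trichohyalin (Tchh) had counts, at 2.94 to 3.48 CPM.

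Genes around the members were compared in the same way. Within 500 kb of a member, 21 of 98 annotated genes in the count table passed the filter. Of these, 1 was at least 2-fold different between genotypes without a scratch, S100a3, and 1 after it, the pseudogene Gm43712, which lies 383977 bases from the nearest member and had a ratio of 2.25. In the wild-type scratch comparison 2 were at least 2-fold different, S100a3 at 3.61 and Gm43712 at 0.267, and in the knockout-labelled one 0. In the same order, 2.24%, 1.90%, 0.858% and 0.267% of all tested genes were at least 2-fold different. Gm43712 stood at 1.88 and 0.502 CPM in wild-type unscratched and scratched and at 1.32 and 1.13 CPM in the knockout-labelled cells. Both of its ratios take in the wild-type scratched library, where it was lowest. The medians of the 21 log2 genotype differences were 0.06 both without and after a scratch. The nearest tested gene outside the family, the chromatin factor Chtop, lies 1536 bases from S100a1 and stood at 105 to 116 CPM.

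The annexins, which carry several S100 proteins to membranes, had a wild-type scratch response of similar size. Of 12 annexins 10 passed the filter, and none was at least 2-fold different in any of the 4 comparisons. Their median log2 scratch difference was 0.17 in wild-type and 0.02 in the knockout-labelled cells, and 7 and 4 of them were higher beyond the counting interval, with 1 and 0 lower. Over all tested genes 22.3% and 18.2% were higher, and 1836 and 1713 of the 12348 were lower. At least 2-fold different were 2.24% and 1.90% of all between genotypes without and after a scratch. In the scratch comparisons of wild-type and knockout-labelled cells 0.858% and 0.267% were. Annexin A2 (Anxa2), the partner of S100a10, was at 593 CPM in wild-type unscratched and at 685, 683 and 700 CPM in scratched wild-type cells and unscratched and scratched knockout-labelled cells. Its RPKM was 0.711, 0.698, 0.737 and 0.722 times that of S100a10, so the ratio of the pair differed little between libraries. Annexin A1 (Anxa1), the partner of S100a11, was at 472 CPM in wild-type unscratched and at 550, 512 and 526 CPM in the others, or 1.19 to 1.24 times the RPKM of S100a11. Anxa3, the most abundant annexin, was at 1321 CPM in wild-type scratched and at 1152, 1161 and 1154 CPM in unscratched wild-type cells and unscratched and scratched knockout-labelled cells.

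Anxa7 and Anxa9 were singled out after their values were seen. Anxa7 had a genotype ratio of 1.32 (1.25 to 1.40) in unscratched and the highest of the 10 annexins in scratched cells, 1.34 (1.27 to 1.42). Without a scratch the highest was Anxa9, at 1.87 (1.15 to 3.11). Like S100a4, Anxa7 showed no scratch difference beyond its counting interval, with ratios of 1.02 (0.961 to 1.09) in wild-type and 1.04 (0.992 to 1.09) in knockout-labelled cells.

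Among 33 listed S100 partners, 29 passed the filter and 1 was at least 2-fold different in any comparison. This was Fgf1, the growth factor released with S100a13, at 3.65 and 2.94 CPM in wild-type unscratched and scratched and 5.78 and 6.03 CPM in the knockout-labelled cells. Its genotype ratio was 1.58 (1.23 to 2.05) in unscratched and 2.05 (1.60 to 2.66) in scratched cells. Fgf1 was counted only between the genotypes after a scratch, where 1.90% of all tested genes were. Between the genotypes 12 partners were higher and 11 lower beyond the counting interval without a scratch, and 11 and 11 after it, with medians of -0.00 and -0.01. Of all 12348 tested genes, 3313 were higher and 2979 lower without a scratch, and 2964 and 2916 after it. The partners were listed with earlier results known, so nothing is read from their share. The receptor Ager stood at 461 and 457 CPM in wild-type and 445 and 397 CPM in the knockout-labelled cells. Myh9, the heavy chain of the non-muscle myosin bound by S100a4, was named after its values were seen and stood at 1246, 1159, 1274 and 1226 CPM in the order above.

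Other calcium genes differed little. Of 28 other EF-hand proteins, 24 passed the filter and none was at least 2-fold different, with genotype medians of 0.05 in unscratched and 0.01 in scratched cells, and scratch medians of 0.07 in wild-type and 0.03 in the knockout-labelled cells. The abundant ones were calumenin (Calu) at 1866 to 2064 CPM, calmodulin (Calm2) at 463 to 485 CPM and Chp1 at 474 to 567 CPM. Of 22 genes for calcium entry, release and pumping, all passed the filter and 1 was at least 2-fold different: the calcium release channel Itpr2, with 2.07 CPM in unscratched wild type and 4.49 CPM in the unscratched knockout-labelled library, a ratio of 2.18 (1.58 to 3.03). After the scratch the ratio of Itpr2 was 1.17 (0.877 to 1.58). Over all tested genes 2.24% and 1.90% were at least 2-fold different between the genotypes without and after a scratch. The shares were 0.858% and 0.267% in the scratch comparisons of wild-type and knockout-labelled cells. The genotype medians of this list were -0.04 in both pairs of libraries.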

How the data were processed

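The authors deposited raw read counts for 46078 Ensembl genes and RPKM values for 14844 of them, 161 without a value. The submitters' processing notes list, without roles, the build mm10 and the tools STAR 2.7.9a, Trimmomatic 0.39, edgeR 3.32.1 and HTSeq 0.11.3. The annotation and strand setting are not given there. In column names, S was read as scratched and N, the remaining letter, as unscratched. Libraries were scaled with TMM factors (edgeR 4.0.16, R 4.3.3), and genes with at least 1 CPM in a library were kept. Ratios of CPM carry exact 95% Clopper-Pearson intervals, levels Poisson intervals, and differences of scratch responses delta-method intervals (Python 3.11.15, numpy 2.4.6, scipy 1.17.1). Intervals cover counting error only, as each condition has 1 library. Reads carry no molecular identifiers, so the intervals may be too narrow even for counting error. The calls were tested on data simulated with counting error only, which cannot show how they behave with spread between replicates. Scaling by totals or DESeq2 1.42.0 size factors, other filters, a prior count of 0.5, a 1.5-fold minimum and the RPKM values (pseudocount 0.1) were alternatives. Positions came from GENCODE on mm10. Members and lists were chosen with earlier results of these data known. The short-transcript medians were added after seeing the data. Named were all members, listed genes that were at least 2-fold different or among the 3 highest of their list by RPKM, neighbours within 500 kb, and the 5 genes nearest in pattern to a member that was at least 2-fold different.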

Additional observations from a re-analysis of the deposited data

Results flagged for a closer look

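In 5 cases a member's log2 difference had opposite signs under the same contrast in the 2 settings, with a difference of responses beyond its counting interval. In 4 of these, 1 of the values lay within its counting interval of 0. With 1 library per condition the differences were not tested. S100a1 was higher after the scratch in wild-type (log2 0.16) and lower in knockout-labelled cells (-0.18), both beyond their counting intervals, a difference of -0.34. By the same 4 values, the knockout minus wild-type difference of S100a1 was 0.09 without a scratch, within its counting interval of 0, and -0.25 after it. S100a16 was at 0.18 and -0.07 after the scratch in wild-type and knockout-labelled cells, a difference of -0.25. The genotype difference was 0.15 without and -0.02 after a scratch for S100a10, a difference of -0.17, and 0.14 and -0.05 for S100a11, a difference of -0.20. For S100a10, S100a11 and S100a16 the second value lay within its counting interval of 0.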

How the results depend on the processing

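All 168 alternative log2 differences of the members, 24 medians, 21 differences of scratch responses and 28 counts of members at least 2-fold different stayed within the counting interval, or 1.5 times the count, of the reported value, and no member's log2 difference shifted by more than 0.02. Of 56 levels, 1 moved beyond its interval: S100a6 in knockout-labelled scratched cells was 1088 CPM with total counts. Numbers of genes at least 2-fold different, 277, 234, 106 and 33 as reported (genotype without and after a scratch, then scratch in wild-type and knockout-labelled cells), depended on the filter and the minimum fold. Without a filter they were 611, 535, 263 and 226, with at least 5 CPM 86, 85, 21 and 6, and with a 1.5-fold minimum 793, 648, 294 and 151. With the RPKM values and no interval, the last 3 were 155, 70 and 15. RPKM levels are another unit and were given beside the CPM. No paired analysis was possible because each condition has 1 library. Leaving out a library removes its condition. Depth limits S100a4, at 67 to 359 counts, and S100a3, at 7 to 49 counts.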
